A study of Cricetulus griseus with 10 samples.

Results

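Chinese hamster ovary CHO-K1 cells at passage 4 of adaptation to suspension culture (P4) were compared with cells at passage 0 (P0). The comparison used the 4 libraries whose labels give these passages, 2 at P0 and 2 at P4, out of 10 libraries in the series. The other 6 libraries came from passages 2, 6 and 10, with 2 at each. In every group the labels name the same line, CHO-K1, the same genotype, wild type, and the same serum-free medium, SFM4CHO, used for the adaptation, so the passage was the only label that differed. The labels do not say how the P0 cells were grown or whether duplicates came from separate cultures. The main p-values come from a model of all 10 libraries. They therefore measure the spread between duplicates over all passages, which may be technical.

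CHO-K1 is an established line that grows attached to plastic in serum and is widely used to make recombinant proteins. For production it is adapted to grow as single cells in suspension, where integrins no longer bind a solid surface and serum no longer supplies growth factors, lipoproteins and hormones. Attachment and serum both feed the ERK kinase cascade, whose earliest transcriptional targets are the immediate early genes. Cholesterol that is not taken up with lipoproteins is made through the mevalonate pathway, whose genes are switched on by SREBP2 when membrane sterol is low.

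Each P0 and P4 library held between 8495567 and 12818981 reads assigned to features, within the range of 8394219 to 16599495 over the series. The duplicates were close at both passages, with a median gap between duplicates of 0.175 in log2 units at P0 and 0.127 at P4, against 0.43 at passage 6 and 0.575 at passage 10. A single gene, Dym, took 9.20% and 13.5% of normalised reads at P0 and 12.6% and 12.7% at P4. The values are normalised reads, meaning reads divided by a size factor of the library. They carry no length correction, so levels are compared between passages and never between genes. These are bulk measurements, in which fewer cells of a type and less RNA per cell cannot be told apart.

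For P4 against P0, 503 features rose and 747 fell, together 1250 of the 13521 features tested (9.24%, with 3.72% higher and 5.52% lower at P4). A feature was called when its adjusted p was under 0.05 in limma, with Benjamini-Hochberg adjustment over all features and with all 10 libraries in the model of log2(normalised reads + 1). Among the calls, 376 rises and 529 falls were of 2-fold or more on that scale, and 115 rises and 64 falls were of 4-fold or more. The falls were thus more numerous in this model, and more rises than falls were of 4-fold or more. The excess of falls depended on which libraries entered the model. The median log2 difference over all tested features was 0.03. The P0 and P4 libraries did not overlap for any called feature, and neither did they for 72.4% of all tested features. The spread in this model was shared with the wider duplicates of passages 6 and 10. When the 4 P0 and P4 libraries were fitted alone, limma called 2830 features higher and 2847 lower (20.9% and 21.1% of those tested, together 42.0%). Without 1 of those 4 libraries, the model of the remaining 9 libraries called 177 (without P0 replicate 1), 338 (P0 replicate 2), 152 (P4 replicate 1) and 143 (P4 replicate 2). It called 698 and 697 without P2 replicates 1 and 2, and 2783 and 2762 without P10 replicates 1 and 2. Of the 1250 called features, 125 passed in each of the 10 models that left out 1 library. The gene lists counted below were chosen with earlier results of these data known. Their shares beside all features describe the lists and are not independent support.

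**Figure D1:**
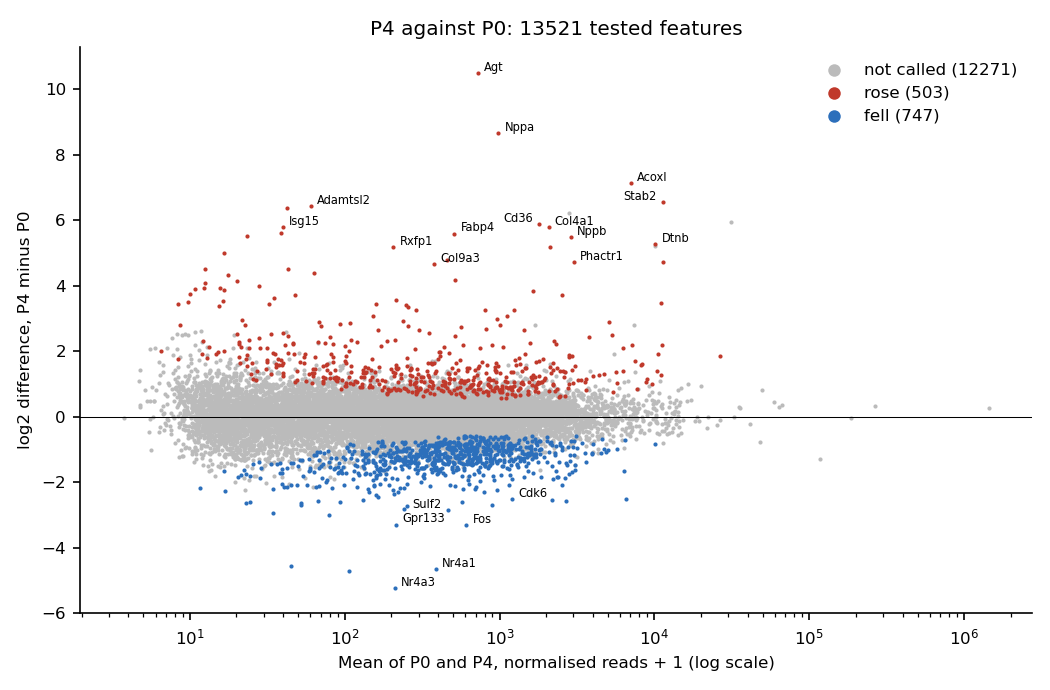
Log2 difference between P4 and P0 (vertical axis) against the mean of both passages (horizontal axis, log scale, normalised reads + 1) for the 13521 tested features, 1 point each. Red points rose (503), blue points fell (747), and labels mark genes with the largest changes. The highest point, Agt, had no P0 read and is placed by the 1 that was added, and the lowest is Nr4a3 (-5.22).

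The features just inside the threshold included Gins1, a subunit of the replicative helicase (adjusted p = 0.0495), and the transcription factor Sp2 (0.0499). Just outside it were Ythdf3, a reader of methylated RNA (0.0503), and Timm22, a mitochondrial import subunit (0.0505).

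The largest rises included those of genes for secreted peptides, a hormone receptor and matrix proteins. Agt encodes angiotensinogen, the precursor of angiotensin. It had no reads in either P0 library and 1448 and 1452 normalised reads at P4, at least 419-fold higher when P0 was set at 3 reads per library (adjusted p = 2.45e-06). Nppa, the precursor of atrial natriuretic peptide, had 8.71 and 1.44 normalised reads at P0 and 1950.3 and 1959 at P4 (log2 difference 8.65, SE 0.62, adjusted p = 0.000191). Nppb, the precursor of brain natriuretic peptide, had 126 and 122 normalised reads at P0 and 5745 and 5508 at P4 (log2 difference 5.49, SE 0.46, adjusted p = 0.000423). Both P4 libraries were far above both P0 libraries for each of these precursors. Rxfp1 encodes the receptor for relaxin, a hormone that remodels reproductive tissue. It had 8.71 and 11.5 normalised reads at P0 and 415 and 385 at P4 (log2 difference 5.18, SE 0.28, adjusted p = 4.88e-05). Of the 10 tested genes in the list of natriuretic, angiotensin and related vasoactive peptides and receptors, 4 rose and none fell, against 3.72% and 5.52% of all features. The same count of 4 was found without each P0 or P4 library. The list was chosen with earlier results of these data known, and its 4 rises are the genes given above. Its counts therefore give no independent support. The natriuretic peptide receptor genes did not pass: Npr1 differed by -1.57, adjusted p = 0.104, and Npr2 by -0.91, adjusted p = 0.107. The median over the 10 genes was 0.10.

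**Figure D2:**
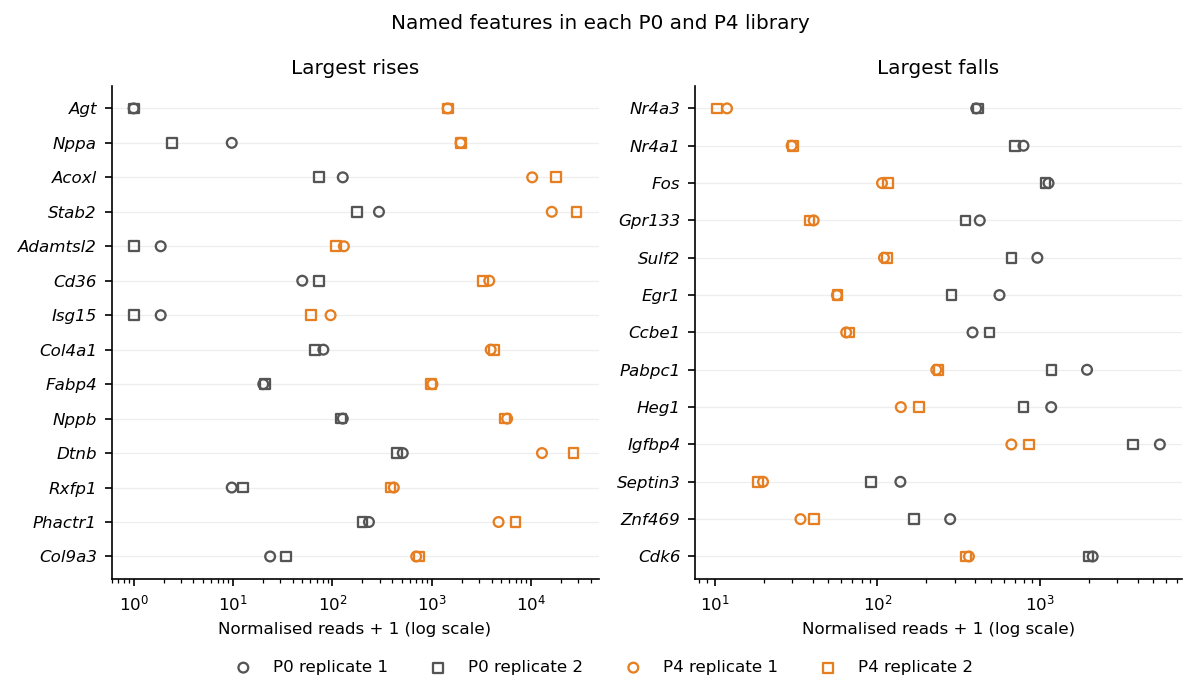
Values in single libraries for the genes with the largest changes between P0 and P4, as normalised reads + 1 on a log axis, 1 point per library. The genes were chosen to have no overlap between the groups, which 72.4% of all tested features also lack. The 2 P4 points of Acoxl, Stab2, Dtnb and Phactr1 stand further apart than those of Agt, Nppa and Fabp4.

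The largest falls were in immediate early genes, transcription factors induced within minutes of growth factor or adhesion signals. Nr4a3, an orphan nuclear receptor, had 405 and 417 normalised reads at P0 and 10.9 and 9.32 at P4 (log2 difference -5.22, SE 0.47, adjusted p = 0.000564). Its relative Nr4a1 had 792 and 703 normalised reads at P0 and 28.7 and 29.1 at P4 (log2 difference -4.64, SE 0.35, adjusted p = 0.000234). Both P4 libraries were at small residual levels for both genes. Fos, which pairs with Jun proteins in the AP-1 factor, had 1129.8 and 1082 normalised reads at P0 and 106 and 115 at P4 (log2 difference -3.31, SE 0.39, adjusted p = 0.00224). Fosb, its relative, had 233 and 175 normalised reads at P0 and 4.95 and 9.32 at P4 (log2 difference -4.69, SE 0.56, adjusted p = 0.0025). Egr1, a zinc finger factor induced by serum, had 564 and 285 normalised reads at P0 and 55.4 and 55.9 at P4 (log2 difference -2.82, SE 0.48, adjusted p = 0.00985), and its 2 P0 libraries stood further apart than those of the other genes named here. Of 20 tested immediate early genes, 10 fell and none rose, against 5.52% and 3.72% of all features. The median log2 difference of the list was -1.18. Egr2, Egr3, Btg2, Fosl2 and Srf were the other members that fell. Klf10 (-0.16), Ier3 (0.18) and Ier5l (0.47) were near or above P0, and Myc (-1.28, adjusted p = 0.0698) did not pass. In the model of 4 libraries 16 of the 20 fell, against 21.1% of all features. Without 1 P0 or P4 library, 4 to 6 fell. Egr1 missed the threshold without P0 replicate 1 or any 1 P4 library (highest adjusted p = 0.11).

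The phosphatases and inhibitors that damp the ERK cascade changed in both directions. Of 17 tested feedback genes, 2 rose and 3 fell (29.4% called against 9.24% of all features), with a median of 0.03. Spry2, an inhibitor of receptor tyrosine kinase signalling, had 282 and 223 normalised reads at P0 and 759 and 823 at P4 (log2 difference 1.65, SE 0.18, adjusted p = 0.00185), and its relative Spry1 rose as well (1.31, adjusted p = 0.036). Dusp16 (-0.97, adjusted p = 0.0133) and Dusp10 (-0.96, adjusted p = 0.0244), phosphatases that act on JNK and p38, fell. Dusp6, which removes phosphate from ERK itself, was at 363 and 361 normalised reads at P0 and 471 and 505 at P4 (0.43, adjusted p = 0.447) and did not pass. Dusp16 missed the threshold without P0 replicate 1 or any 1 P4 library (highest adjusted p = 0.151). Dusp10 and Spry1 missed the threshold without any 1 P0, P2 or P4 library (highest adjusted p = 0.198 to 0.237).

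The called genes of the EGF family rose, and those of the insulin and IGF pathway fell. The shares called were 25.0% and 45.5%, against 9.24% of all features. In the EGF family 3 of 12 tested genes rose and none fell (median 0.24, and 2 to 3 rose without 1 P0 or P4 library). Ereg, the ligand epiregulin, had 259.6 and 214 normalised reads at P0 and 2021 and 1979 at P4 (log2 difference 3.08, SE 0.39, adjusted p = 0.00311). Nrg4, a ligand of ERBB4, had 37.5 and 25.9 normalised reads at P0 and 286 and 258 at P4 (log2 difference 3.08, SE 0.37, adjusted p = 0.00253). Egfr, the receptor of EGF and epiregulin, had 3.48 and 7.19 normalised reads at P0 and 20.8 and 25.6 at P4 (log2 difference 1.99, SE 0.40, adjusted p = 0.0184). The P4 libraries were above the P0 libraries for all 3 genes. Of the other receptors, Erbb2 was at -0.84, Erbb3 at 0.98 and Erbb4 at -0.14, none of which passed. Egfr missed the threshold without P0 replicate 1 or any 1 P4 library (highest adjusted p = 0.166).

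In the insulin and IGF list 5 of 11 tested genes fell and none rose, with a median of -1.08. Igfbp4, a secreted protein that binds IGFs and is released from them by proteolysis, had 5475 and 3753 normalised reads at P0 and 667 and 859 at P4 (log2 difference -2.58, SE 0.33, adjusted p = 0.00321), which is 6.05-fold lower by the ratio of means. Both P4 libraries were below both P0 libraries, and the call held in each model that left out 1 library (highest adjusted p = 0.0492). Igf1r, the receptor of IGF1, had 2025 and 2479 normalised reads at P0 and 612 and 631 at P4 (log2 difference -1.85, SE 0.22, adjusted p = 0.00224). Foxo1, a transcription factor held in the cytoplasm by insulin signalling, had 324 and 213 normalised reads at P0 and 47.5 and 51.3 at P4 (log2 difference -2.39, SE 0.31, adjusted p = 0.0035). Irs1, the adaptor that carries the signal from the receptors, had 617 and 605 normalised reads at P0 and 275 and 249 at P4 (log2 difference -1.22, SE 0.21, adjusted p = 0.0101). Stc2, an inhibitor of the protease that cuts IGF-binding proteins, was the fifth gene that fell (-2.60, adjusted p = 0.0108). Igf2r (0.94, adjusted p = 0.07) and Insr (-1.08, adjusted p = 0.0757) did not pass. When P0 and P4 were fitted alone, 8 fell and 1 rose, against 21.1% and 20.9% of all features. Without 1 P0 or P4 library, 2 to 3 fell. Foxo1 missed the threshold without P0 replicate 1 or P4 replicate 1 (highest adjusted p = 0.0525). Irs1 missed the threshold without any 1 P0 or P4 library (highest adjusted p = 0.122).

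In the other growth factor pathways genes moved in both directions. In the TGF-beta and BMP list 2 of 26 tested genes rose and 2 fell (15.4% called against 9.24% of all features, median -0.03). Ltbp2, a matrix protein of the latent TGF-beta binding family (1.48, adjusted p = 0.0132), was among those that rose. Acvr1, a BMP receptor (-1.41, adjusted p = 0.0092), and Ski, a repressor of SMAD factors (-1.12, adjusted p = 0.00467), fell. In the Wnt list 1 of 22 rose and 2 fell (13.6% called, median -0.29). Wnt7b, a ligand, had 6.97 and 2.87 normalised reads at P0 and 41.6 and 35.0 at P4 (log2 difference 2.82, SE 0.42, adjusted p = 0.00581), while the nuclear effectors Tcf7 (-1.57, adjusted p = 0.0225) and Tcf7l2 (-1.45, adjusted p = 0.0209) fell. Ltbp2, Acvr1 and Tcf7l2 missed the threshold without any 1 P0 or P4 library (highest adjusted p = 0.105 to 0.186). Ski and Tcf7 missed the threshold without P0 replicate 1 or any 1 P4 library (highest adjusted p = 0.0769 to 0.199). Wnt7b missed the threshold without any 1 P4 library (highest adjusted p = 0.0784).

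Collagen genes changed by some of the largest amounts. In the basement membrane list 25.0% of tested genes were called, against 9.24% of all features. Col4a1, a chain of the collagen network of basement membranes, had 80.1 and 66.1 normalised reads at P0 and 3920.3 and 4214 at P4 (log2 difference 5.78, SE 0.18, adjusted p = 2.45e-06). Its partner chain Col4a2 had 5.23 and 4.31 normalised reads at P0 and 119 and 120.0 at P4 (log2 difference 4.39, SE 0.32, adjusted p = 0.000191). Both chains were high in both P4 libraries. Nid2, which links laminin to collagen (1.66, adjusted p = 0.00526), rose too. In the basement membrane list 4 of 16 tested genes rose and none fell (median 0.38), and 3 to 4 rose without 1 P0 or P4 library. The laminin chains Lamc1 (-0.46), Lamb1 (0.48) and Lama5 (-0.27) did not pass. Fitting P0 and P4 alone gave 8 rises and 2 falls, against 20.9% and 21.1% of all features. Nid2 missed the threshold without P0 replicate 1 or any 1 P4 library (highest adjusted p = 0.0773).

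Among collagens and proteoglycans of the interstitial matrix, 6 of 26 tested genes rose and 2 fell (30.8% called against 9.24% of all features, median 0.535). Col6a1, a chain of beaded-filament collagen, had 419.9 and 305 normalised reads at P0 and 4717 and 4728 at P4 (log2 difference 3.72, SE 0.26, adjusted p = 0.000191). Its partner Col6a2 had 54.9 and 50.3 normalised reads at P0 and 888 and 1059 at P4 (log2 difference 4.18, SE 0.34, adjusted p = 0.000343). Lum, the collagen-binding proteoglycan lumican, had 4.36 and 1.44 normalised reads at P0 and 73.2 and 88.6 at P4 (log2 difference 4.50, SE 0.55, adjusted p = 0.00258). All 3 were low at P0 and high in both P4 libraries. Col9a3, a cartilage collagen chain outside this list, had 22.6 and 33.1 normalised reads at P0 and 698 and 747 at P4 (log2 difference 4.67, SE 0.50, adjusted p = 0.00157). Col3a1 (1.87, adjusted p = 0.00659), a fibrillar collagen, Col1a1 and Loxl3 rose, while Col8a1 and the collagen hydroxylase P4ha1 (-0.60, adjusted p = 0.0473) fell. Without 1 P0 or P4 library 3 rose and none fell. With the 4 libraries alone 14 rose and 2 fell, against 20.9% and 21.1% of all features. Col3a1 missed the threshold without any 1 P0 or P4 library (highest adjusted p = 0.0827). P4ha1 missed the threshold without any 1 P0, P2 or P4 library (highest adjusted p = 0.3).

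Matricellular and adhesive glycoproteins moved in both directions, with 3 of 17 higher, 3 lower and a median of 0.15 (35.3% called against 9.24% of all features). Thbs1, the adhesive protein thrombospondin, had 12125 and 10022 normalised reads at P0 and 1857 and 2016 at P4 (log2 difference -2.51, SE 0.19, adjusted p = 0.000234). Efemp1, a fibulin of elastic matrix, had 4275 and 4080.2 normalised reads at P0 and 1099 and 1192 at P4 (log2 difference -1.87, SE 0.17, adjusted p = 0.000663). Cyr61, an integrin-binding protein and YAP target, fell (-1.35, adjusted p = 0.00636). Spp1, the integrin ligand osteopontin, went the other way, with 61.8 and 74.7 normalised reads at P0 and 364 and 337 at P4 (log2 difference 2.35, SE 0.24, adjusted p = 0.00111). Adamtsl2, a glycoprotein of fibrillin microfibrils, had 1 read in the P0 libraries together and 223 in the P4 libraries, or 220 times as many reads (39.1 to 8730 by the 95% counting interval, adjusted p = 0.000191). Ccn2, a relative of Cyr61, rose (1.53, adjusted p = 0.0167). Fibronectin, Fn1, was at 7604 and 5351 normalised reads at P0 and 3599.8 and 4154 at P4 and did not pass (-0.72, adjusted p = 0.0615). Cyr61 missed the threshold without P0 replicate 1 or any 1 P4 library (highest adjusted p = 0.0855). Ccn2 missed the threshold without any 1 P0 or P4 library (highest adjusted p = 0.155).

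Among genes for enzymes that cut the matrix and for their inhibitors, 6 of 24 tested rose and 1 fell, with a median of 0.62. The share called was 29.2%, against 9.24% of all features. Mmp12, macrophage elastase, had 133 and 158 normalised reads at P0 and 956 and 989.5 at P4 (log2 difference 2.74, SE 0.34, adjusted p = 0.0027). Mmp19, another metalloprotease, had 1236 and 1233 normalised reads at P0 and 4372 and 4349.7 at P4 (log2 difference 1.82, SE 0.23, adjusted p = 0.00281). Adamts4, which cleaves the proteoglycan aggrecan, had 74.0 and 50.3 normalised reads at P0 and 302 and 318 at P4 (log2 difference 2.32, SE 0.25, adjusted p = 0.0015). Timp1, an inhibitor of these metalloproteases, rose as well, with 1100.2 and 1105 normalised reads at P0 and 2979 and 3338 at P4 (log2 difference 1.52, SE 0.17, adjusted p = 0.00215). For each of these 4 genes the P4 libraries were above the P0 libraries. Mmp10 and Serpinf1 completed the rises, and Adamts1 fell. Without 1 P0 or P4 library 4 to 5 rose and none fell. The collagenases and gelatinases Mmp13 (1.73, adjusted p = 0.0688), Mmp2 (0.82, adjusted p = 0.239) and Mmp9 (-0.24, adjusted p = 0.779) did not pass. Sulf2, which trims sulfate from heparan chains at the cell surface, fell, with 964 and 668 normalised reads at P0 and 109 and 113 at P4 (log2 difference -2.84, SE 0.23, adjusted p = 0.000312), as did Ext1, which builds those chains (-1.13, adjusted p = 0.0243). These were the 2 falls among 15 heparan sulfate genes, with no rise (13.3% called against 9.24% of all features, median -0.17). Ext1 missed the threshold without any 1 P0 or P4 library (highest adjusted p = 0.173).

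Genes of cell attachment to the matrix moved in both directions, and their largest change was a fall. Among integrins and focal adhesion genes 2 of 39 rose and 3 fell (12.8% called against 9.24% of all features, median -0.18). Zyx, the focal adhesion protein zyxin, had 421 and 374 normalised reads at P0 and 80.1 and 93.2 at P4 (log2 difference -2.18, SE 0.25, adjusted p = 0.00209). Itgb1, the most shared integrin beta chain, had 14044 and 11794 normalised reads at P0 and 6947 and 7392 at P4 (log2 difference -0.84, SE 0.19, adjusted p = 0.027), a smaller fall. Tgfb1i1, a focal adhesion scaffold, fell (-1.36, adjusted p = 0.0172), and Csrp1, a LIM protein of actin bundles (2.10, adjusted p = 0.00386), and the focal adhesion kinase gene Ptk2 (0.64, adjusted p = 0.0347) rose. Talin, Tln1 (0.04), and vinculin, Vcl (-0.15), were near P0. Fitted with the P0 and P4 libraries alone, 5 of the 39 rose and 16 fell, against 20.9% and 21.1% of all features. Among 32 genes of the YAP, SRF and actin list 2 rose and 5 fell (21.9% called, median -0.145). Tead1, the DNA-binding partner of YAP (-1.85, adjusted p = 0.00842), and Myh10, a non-muscle myosin (-1.15, adjusted p = 0.00782), were among those that fell. In the list of cadherins and junction proteins, Dsp, which anchors desmosomes to keratin, had 1295 and 989 normalised reads at P0 and 236 and 254 at P4 (log2 difference -2.20, SE 0.20, adjusted p = 0.00065). Pkp4, a plakophilin (-0.90, adjusted p = 0.0326), was the other of 2 falls among 23 (no rise, 8.7% called, median 0.03). E-cadherin, Cdh1, was at 200.3 and 280.3 normalised reads at P0 and 207 and 164 at P4 (-0.36, adjusted p = 0.766). Csrp1 and Myh10 missed the threshold without P0 replicate 1 or any 1 P4 library (highest adjusted p = 0.0556 to 0.103). Tgfb1i1 and Tead1 missed the threshold without any 1 P0 or P4 library (highest adjusted p = 0.0944 to 0.169). Itgb1 and Pkp4 missed the threshold without any 1 P0, P2 or P4 library (highest adjusted p = 0.216 to 0.227).

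Many genes of cholesterol synthesis rose, by moderate amounts. In the mevalonate branch 5 of 8 tested genes rose and none fell (62.5% called against 9.24% of all features, median 1.30). In the later sterol branch 5 of 12 rose and none fell (41.7% called, median 1.01). The mevalonate genes together took 0.0653% and 0.0626% of normalised reads at P0 and 0.164% and 0.156% at P4. Hmgcs1, HMG-CoA synthase, had 1234 and 1309 normalised reads at P0 and 4769 and 4389 at P4 (log2 difference 1.85, SE 0.25, adjusted p = 0.0039). Idi1, isopentenyl diphosphate isomerase, had 1026 and 1128 normalised reads at P0 and 3524 and 3170.2 at P4 (log2 difference 1.63, SE 0.22, adjusted p = 0.00396). The P4 libraries were above the P0 libraries for both genes. In the sterol branch, Msmo1 had 1183 and 1223 normalised reads at P0 and 3228 and 2909 at P4 (log2 difference 1.35, SE 0.16, adjusted p = 0.00239). Mvd (1.49, adjusted p = 0.0305), Fdps, Sc5d (1.18, adjusted p = 0.00501), Lss (1.49, adjusted p = 0.0146), Fdft1 (0.87, adjusted p = 0.0117) and Ebp, all enzymes of the pathway, rose as well. In the model of 4 libraries, 7 of 8 mevalonate genes rose and none fell, and 9 of 12 sterol genes rose and 1 fell. Over all features 20.9% rose and 21.1% fell in that model. Without 1 P0 or P4 library, 0 to 2 mevalonate genes and 1 sterol gene rose. Hmgcs1 and Idi1 missed the threshold without P0 replicate 1 or P4 replicate 1 (highest adjusted p = 0.0574 to 0.0622). Mvd missed the threshold without any 1 P0, P2 or P4 library (highest adjusted p = 0.185). Sc5d, Fdft1 and Lss missed the threshold without any 1 P0 or P4 library (highest adjusted p = 0.0747 to 0.138).

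**Figure D3:**
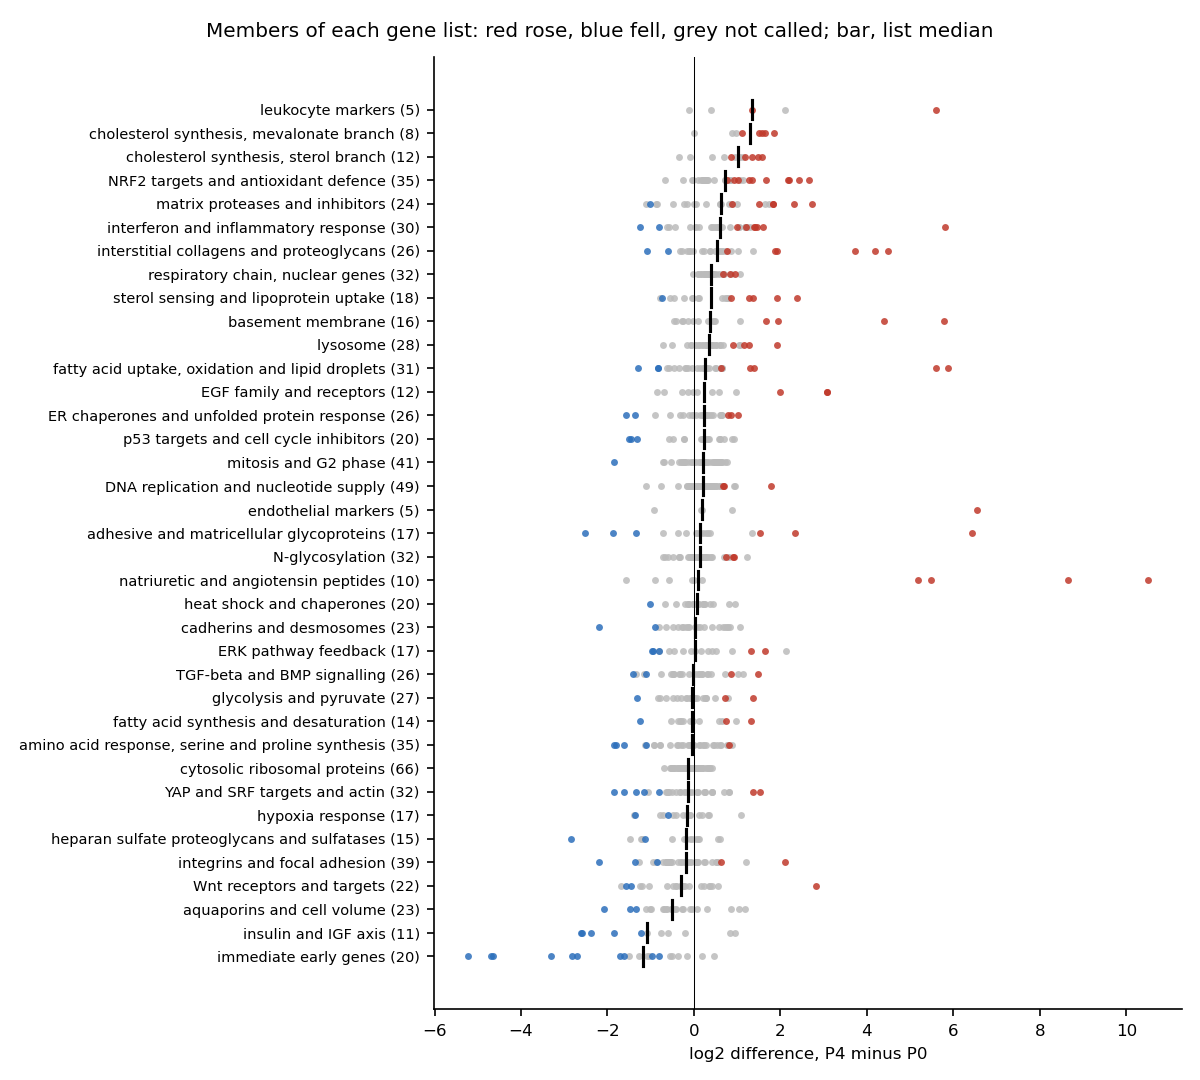
Log2 difference between P4 and P0 (horizontal axis) for each tested member of the gene lists (vertical axis), with red points for members that rose, blue for those that fell, grey for those not called, and a bar at the list's median. Medians run from -1.18 for immediate early genes to 1.30 for the mevalonate branch and 1.34 for the 5 tested leukocyte markers.

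Sterol sensors and carriers also changed, with 33.3% called against 9.24% of all features. Of 18 tested, 5 rose and 1 fell (median 0.39), and 2 rose without 1 P0 or P4 library. Insig1, which holds SREBP in the endoplasmic reticulum and is itself a target of SREBP, had 686 and 678 normalised reads at P0 and 1845 and 1690.0 at P4 (log2 difference 1.37, SE 0.16, adjusted p = 0.00199). Nr1h3, the oxysterol receptor LXR alpha, had 598 and 615 normalised reads at P0 and 2321 and 2309 at P4 (log2 difference 1.93, SE 0.17, adjusted p = 0.000564). Abcg1, a sterol exporter and LXR target, had 8.71 and 7.19 normalised reads at P0 and 47.5 and 44.3 at P4 (log2 difference 2.39, SE 0.36, adjusted p = 0.0064). All 3 genes were higher in both P4 libraries than in either P0 library. The lipoprotein receptor Lrp8 rose (0.86, adjusted p = 0.021). Star, which carries cholesterol into mitochondria for steroid synthesis and was named after its values were seen, had 220.4 and 206 normalised reads at P0 and 1775 and 1639 at P4 (8.02-fold higher by the ratio of means, adjusted p = 0.000107). Abcg1 missed the threshold without any 1 P0 or P4 library (highest adjusted p = 0.0794). Lrp8 missed the threshold without any 1 P0, P2 or P4 library (highest adjusted p = 0.171).

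Fatty acid uptake genes held 2 of the largest rises. Cd36, a fatty acid translocase and scavenger receptor, had 48.8 and 71.9 normalised reads at P0 and 3796 and 3273 at P4 (log2 difference 5.87, SE 0.25, adjusted p = 9.26e-06). Fabp4, a fatty acid carrier of adipocytes and macrophages, had 19.2 and 20.1 normalised reads at P0 and 1016 and 976 at P4 (log2 difference 5.59, SE 0.22, adjusted p = 6.8e-06). Both P4 libraries exceeded both P0 libraries by a wide margin. Plin4, a lipid droplet coat protein, rose by less (1.40, adjusted p = 0.0203), and Lpl, lipoprotein lipase, fell (-0.83, adjusted p = 0.0266). In this list of uptake, oxidation and droplet genes 5 of 31 rose and 3 fell (median 0.26), and without 1 P0 or P4 library 2 rose and none fell. Pparg, the nuclear receptor that drives Cd36 and Fabp4 in adipocytes, was at 3262 and 3539.8 normalised reads at P0 and 3670.0 and 3521 at P4 (0.08, adjusted p = 0.914). In fatty acid synthesis 2 of 14 rose and 1 fell, with a median of -0.05. The share called was 21.4% for synthesis and 25.8% for uptake, oxidation and droplets, against 9.24% of all features. Fasn, fatty acid synthase, was at 3431 and 2271 normalised reads at P0 and 2048 and 2255 at P4 and did not pass (-0.38, adjusted p = 0.585). Plin4 missed the threshold without any 1 P0 or P4 library (highest adjusted p = 0.168). Lpl missed the threshold without any 1 P0, P2 or P4 library (highest adjusted p = 0.227).

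A set of antioxidant genes regulated by NRF2 rose, with 10 of 35 tested higher, none lower and a median of 0.71. The share called was 28.6%, against 9.24% of all features. Together the list took 0.428% and 0.383% of normalised reads at P0 and 0.728% and 0.750% at P4. Hmox1, heme oxygenase, had 406 and 381 normalised reads at P0 and 2233 and 2759.9 at P4 (log2 difference 2.66, SE 0.30, adjusted p = 0.00194). Akr1b8, an aldo-keto reductase, had 1184 and 1191 normalised reads at P0 and 6542 and 6307 at P4 (log2 difference 2.43, SE 0.21, adjusted p = 0.000423). Both were higher in each P4 library than in either P0 library. Slc7a11, the cystine importer (1.34, adjusted p = 0.00901), and Nqo1, a quinone reductase (1.67, adjusted p = 0.00929), rose too, as did Gpx1, Gstp1, Fth1, Gsr, Sqstm1 and Txnrd1. Gclm (0.31), Gclc (0.22) and Srxn1 (-0.66), equally known as NRF2 targets, did not pass. Fth1, Gstp1 and Gpx1 belong to families with near-identical copies, so their counts are uncertain. With the 4 libraries alone 22 rose and 1 fell, against 20.9% and 21.1% of all features. Without 1 P0 or P4 library 2 to 3 rose. Slc7a11 missed the threshold without P0 replicate 1 or any 1 P4 library (highest adjusted p = 0.103). Nqo1 missed the threshold without any 1 P0 or P4 library (highest adjusted p = 0.103).

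Interferon-response genes gave more rises than falls. Of 30 tested interferon and inflammatory genes, 7 rose and 2 fell (30.0% called against 9.24% of all features, median 0.61). Isg15, a ubiquitin-like protein induced by interferon, had 1 read in the P0 libraries together and 147 in the P4 libraries, or 145 times as many reads (25.6 to 5770 by the 95% counting interval, adjusted p = 0.000161). B2m, the light chain of MHC class I, had 3436 and 3454 normalised reads at P0 and 9063 and 9103 at P4 (log2 difference 1.40, SE 0.18, adjusted p = 0.00329). The factor Irf1 (1.46, adjusted p = 0.0107) and the ISG15 protease Usp18 (1.59, adjusted p = 0.0196) rose as well. Irf9, Mx2 and Il6 completed the rises, and Cxcl1 and Oasl fell. With the 4 libraries alone 20 rose and 5 fell, against 20.9% and 21.1% of all features. Without 1 P0 or P4 library 1 to 2 rose. B2m missed the threshold without P0 replicate 1 or any 1 P4 library (highest adjusted p = 0.0565). Irf1 and Usp18 missed the threshold without any 1 P0 or P4 library (highest adjusted p = 0.109 to 0.168).

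Markers of leukocytes were looked at beside these rises. Of 12 matched markers, 5 were abundant enough to test, and 2 of them rose (40.0% called against 9.24% of all features). Itgax, the integrin chain CD11c, had 1 read at P0 and 139 at P4, a ratio of 137 (95% counting interval 24.2 to 5460, adjusted p = 0.000423). Cd68, a lysosomal protein abundant in macrophages, rose (1.34, adjusted p = 0.0296). The defining markers Cd14 and Cd3e were at 0 in all 4 libraries, and Ptprc, the pan-leukocyte antigen, had 9.58 and 18.7 normalised reads at P0 and 11.9 and 12.8 at P4. The summed level of the 12 markers was 67.9 and 74.7 normalised reads at P0 and 201 and 231 at P4. Of 11 matched endothelial markers 5 were tested and 1, Stab2, rose, while Cldn5 was at 0 and Pecam1 had 31.4 and 25.9 normalised reads at P0 and 42.5 and 24.5 at P4. No tested epithelial marker passed. The part of other cells in the rises of Cd36, Fabp4, Mmp12 and the interferon genes was not tested. Cd68 missed the threshold without any 1 P0, P2 or P4 library (highest adjusted p = 0.234).

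Called cell cycle genes moved in both directions, and replication and mitotic genes were called less often than all features. The shares called were 6.12% for replication and 2.44% for mitosis, against 9.24% of all features. For p53 targets and cell cycle inhibitors the share was 15.0%. Of 49 tested genes of DNA replication and nucleotide supply, 3 rose and none fell (median 0.21). Rrm2, the regulated subunit of ribonucleotide reductase, had 586 and 615 normalised reads at P0 and 2059 and 2108 at P4 (log2 difference 1.79, SE 0.25, adjusted p = 0.00456). Pold2 (0.68, adjusted p = 0.0439) and Gins1 (0.69, adjusted p = 0.0495) were the other rises. Mki67, a proliferation antigen of the chromosome surface, had 4436 and 3002 normalised reads at P0 and 993 and 1031 at P4 (log2 difference -1.85, SE 0.45, adjusted p = 0.0361), and was the only one of 41 mitotic genes that passed (median 0.21). Cdk6, a kinase of the G1 phase, had 2112 and 1989 normalised reads at P0 and 365 and 351 at P4 (log2 difference -2.51, SE 0.24, adjusted p = 0.000836). Its cyclin partner Ccnd1, named after its values were seen, went the other way, with 443 and 339 normalised reads at P0 and 1622 and 1795 at P4 (log2 difference 2.13, SE 0.27, adjusted p = 0.00321). Among 20 p53 targets and cell cycle inhibitors 3 fell and none rose (median 0.225): the antiproliferative gene Btg1 (-1.46, adjusted p = 0.00594), the stress gene Tp53inp1 (-1.49, adjusted p = 0.00536) and the retinoblastoma gene Rb1 (-1.33, adjusted p = 0.0211). With the 4 libraries alone 20 replication genes rose and 3 fell, and 18 mitotic genes rose and 7 fell. Over all features 20.9% rose and 21.1% fell in that model. Without 1 P0 or P4 library 0 to 1 replication genes rose and no mitotic gene fell. Rrm2 and Btg1 missed the threshold without P0 replicate 1 or any 1 P4 library (highest adjusted p = 0.0606 to 0.079). Pold2, Gins1 and Mki67 missed the threshold without any 1 P0, P2 or P4 library (highest adjusted p = 0.25 to 0.311). Tp53inp1 and Rb1 missed the threshold without any 1 P0 or P4 library (highest adjusted p = 0.0725 to 0.167).

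The amino acid response, which ATF4 drives when amino acids are scarce, had 4 falls and 1 rise among 35 tested genes (median -0.06). The share called was 14.3%, against 9.24% of all features. Sesn2, a leucine sensor that restrains mTORC1, had 438 and 365 normalised reads at P0 and 117 and 104 at P4 (log2 difference -1.85, SE 0.31, adjusted p = 0.00929). Slc38a2, a transporter of small neutral amino acids, had 5629 and 5233 normalised reads at P0 and 2663 and 2364 at P4 (log2 difference -1.11, SE 0.18, adjusted p = 0.00832). Aldh18a1, the first enzyme of proline synthesis (-1.61, adjusted p = 0.0144), fell, and the transporter Slc1a4 rose (0.82, adjusted p = 0.0303). Among 26 genes of the endoplasmic reticulum 3 rose and 2 fell (19.2% called, median 0.24). The oxidase Ero1l (-1.37, adjusted p = 0.0064) and the stress sensor Ern1 (-1.57, adjusted p = 0.0113) fell, and the chaperone Dnajb11 (1.02, adjusted p = 0.0149) and the secreted stress protein Manf (0.78, adjusted p = 0.0225) rose. Bag3, a co-chaperone (-1.01, adjusted p = 0.0146), was the single call among 20 heat shock genes (5.0% called, median 0.07). Sesn2, Slc38a2, Aldh18a1, Ern1 and Dnajb11 missed the threshold without any 1 P0 or P4 library (highest adjusted p = 0.105 to 0.149). Slc1a4 and Manf missed the threshold without any 1 P0, P2 or P4 library (highest adjusted p = 0.189 to 0.214). Ero1l and Bag3 missed the threshold without P0 replicate 1 or any 1 P4 library (highest adjusted p = 0.0868 to 0.151).

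Nuclear genes of the respiratory chain were nearly all higher in mean, by small amounts. Of 32 tested, 31 were higher at P4 in mean, with a median of 0.40. By the test 3 rose, which is 9.38% called, near the 9.24% of all features. They were Ndufa4 (0.95, adjusted p = 0.0083), Ndufa6 (0.84, adjusted p = 0.0442) and Ndufb5 (0.68, adjusted p = 0.045). With the 4 libraries alone 25 rose, and without 1 P0 or P4 library none did. Over all features 20.9% rose with the 4 libraries alone. Of 27 glycolysis and pyruvate genes 2 rose and 1 fell (11.1% called, median -0.04). Pcx, pyruvate carboxylase (1.37, adjusted p = 0.00788), and Mpc1, a mitochondrial pyruvate carrier (0.71, adjusted p = 0.0418), rose, and Gpi, the isomerase of glucose 6-phosphate (-1.32, adjusted p = 0.0334), fell. None of 66 cytosolic ribosomal protein genes passed in limma (median -0.13, 0 at an unadjusted p under 0.05, 0 called by edgeR), and the smallest p among them was that of Rps12 (-0.51, adjusted p = 0.396). In the model of 4 libraries 3 of the 66 ribosomal genes rose and 9 fell, against 20.9% and 21.1% of all features. Ndufa4 missed the threshold without any 1 P0 or P4 library (highest adjusted p = 0.103). Ndufa6, Ndufb5, Mpc1 and Gpi missed the threshold without any 1 P0, P2 or P4 library (highest adjusted p = 0.249 to 0.282). Pcx missed the threshold without P0 replicate 2 or any 1 P4 library (highest adjusted p = 0.0867).

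A few lysosomal and glycosylation genes, of interest in a producer line, rose. The share called was 14.3% in the lysosomal list and 9.38% in the glycosylation list, against 9.24% of all features. The glycosylation list was thus called about as often as all features. Ctsa, a lysosomal carboxypeptidase that protects sialidase, had 4624 and 4207 normalised reads at P0 and 16184 and 17289 at P4 (log2 difference 1.92, SE 0.23, adjusted p = 0.00252). Cd63 (1.15, adjusted p = 0.0214), Npc2, the sterol carrier (1.28, adjusted p = 0.0261), and the mannosidase Man2b1 (0.90, adjusted p = 0.0406) made up the 4 rises among 28 lysosomal genes (no fall, median 0.35). In N-glycosylation 3 of 32 rose and none fell (median 0.14): Dad1, a subunit of oligosaccharyltransferase (0.90, adjusted p = 0.0098), and the sialyltransferases St3gal3 (0.92, adjusted p = 0.0107) and St3gal4 (0.73, adjusted p = 0.0395). Cd63, Dad1 and St3gal3 missed the threshold without any 1 P0 or P4 library (highest adjusted p = 0.13 to 0.187). Npc2, Man2b1 and St3gal4 missed the threshold without any 1 P0, P2 or P4 library (highest adjusted p = 0.184 to 0.251).

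Genes of cell volume control fell in part. Of 23 aquaporin and volume genes, 3 fell and none rose (median -0.50). Sgk1, a kinase induced by serum and by osmotic stress, had 3237 and 3176 normalised reads at P0 and 1163 and 1120.1 at P4 (log2 difference -1.49, SE 0.18, adjusted p = 0.00268). Wnk1, a kinase that senses chloride, had 4794 and 3461 normalised reads at P0 and 975 and 939 at P4 (log2 difference -2.09, SE 0.35, adjusted p = 0.00948). Stk39, the kinase it activates, fell (-1.33, adjusted p = 0.0125). Both P4 libraries were below both P0 libraries for these kinases. The water channel Aqp1 had 625 and 773 normalised reads at P0 and 536 and 512 at P4 and did not pass (log2 difference -0.41, SE 0.61, adjusted p = 0.749), although it passed in the model of the 4 libraries alone (adjusted p = 0.0221). With the 4 libraries alone 4 members of the list rose and 15 fell, against 20.9% and 21.1% of all features. Without 1 P0 or P4 library 1 to 2 fell. Wnk1 missed the threshold without P0 replicate 1 or any 1 P4 library (highest adjusted p = 0.108). Stk39 missed the threshold without any 1 P0 or P4 library (highest adjusted p = 0.13).

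The remaining large falls came from regulators of several kinds. Gpr133, an adhesion G protein-coupled receptor, had 426 and 348 normalised reads at P0 and 39.6 and 37.3 at P4 (log2 difference -3.29, SE 0.30, adjusted p = 0.000564). Ccbe1, a secreted factor needed for lymphatic growth, had 384 and 489 normalised reads at P0 and 63.3 and 66.4 at P4 (log2 difference -2.72, SE 0.32, adjusted p = 0.00222). Both were lower in both P4 libraries. Pabpc1, the cytoplasmic poly(A)-binding protein, had 1950.3 and 1178 normalised reads at P0 and 229.6 and 237 at P4 (log2 difference -2.70, SE 0.31, adjusted p = 0.00219), a value that is uncertain because near-identical copies can share its reads. Heg1, a membrane protein of cell junctions (-2.61, adjusted p = 0.00512), the septin Septin3 (-2.56, adjusted p = 0.00499) and the zinc finger gene Znf469 (-2.55, adjusted p = 0.00526) fell as well. Heg1 missed the threshold without P0 replicate 1 or P4 replicate 1 (highest adjusted p = 0.0701). Septin3 and Znf469 missed the threshold without P0 replicate 1 or any 1 P4 library (highest adjusted p = 0.0692 to 0.0719).

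A set of rises had wide spread between libraries. Stab2, a scavenger receptor for hyaluronan, had 294 and 177 normalised reads at P0 and 16165 and 28647 at P4 (log2 difference 6.56, SE 1.38, adjusted p = 0.0214). Acoxl, a relative of peroxisomal acyl-CoA oxidases, had 126 and 71.9 normalised reads at P0 and 10269 and 17782 at P4 (log2 difference 7.13, SE 1.48, adjusted p = 0.0205). Dtnb, a dystrobrevin, had 510.4 and 447 normalised reads at P0 and 12879 and 26688 at P4 (log2 difference 5.28, SE 1.31, adjusted p = 0.0407). Phactr1, a regulator of protein phosphatase 1 and actin, had 233 and 199.8 normalised reads at P0 and 4709.9 and 6967 at P4 (log2 difference 4.73, SE 0.99, adjusted p = 0.0215). In each of them P4 replicate 2 was well above P4 replicate 1. The passage 6 duplicates were further apart still. Stab2 had 18284 and 15666 at passage 2 and 137 and 6829 at passage 6. Acoxl had 68.1 and 4593 at passage 6, Dtnb had 488 and 15849.5 and Phactr1 had 39.1 and 519. At passage 6, replicate 1 was below both P0 libraries for Stab2, Acoxl and Phactr1 and between them for Dtnb, while replicate 2 was above both P0 libraries for all 4 genes. The unnamed feature 100763161 had 1098 and 854 normalised reads at P0 and 44978 and 78291 at P4, 54106 and 32483 at passage 2 and 365 and 36253 at passage 6, and it did not pass (adjusted p = 0.0558). Feature 100762870, also unnamed, had 836 and 752 normalised reads at P0 and 16356 and 27210.1 at P4 and 203 and 3571 at passage 6, and it passed (adjusted p = 0.0244). Both were chosen after their values were seen. Acoxl, Stab2 and Phactr1 missed the threshold without any 1 P0 or P4 library (highest adjusted p = 0.157 to 0.162). Dtnb missed the threshold without any 1 P0, P2 or P4 library (highest adjusted p = 0.249).

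The levels at P4 were set beside those at passage 2 (P2), the passage before it in the series. No feature passed for P4 against P2 in limma on all 10 libraries (285, or 2.11%, at an unadjusted p under 0.05) or in edgeR's quasi-likelihood test on recovered reads. The model of the 6 libraries of passages 0, 2 and 4 called 219 features (1.62%). Among them were 27 of the 132 genes chosen by the naming rule, of which 20 were higher and 7 lower at P4 than at P2. That rule drew mostly on P4 against P0 with the same P4 libraries, so this share cannot be read against the 1.62%. Nppa had 131 and 123 normalised reads at P2 and 1950.3 and 1959 at P4 (log2 difference 3.93, adjusted p = 0.00383 in that model). Col4a1 had 1369 and 1267 at P2 and 3920.3 and 4214 at P4 (log2 difference 1.62, adjusted p = 0.000103). Nppb had 1905 and 1770.2 at P2 and 5745 and 5508 at P4 (log2 difference 1.61, adjusted p = 2.96e-05). These peptide and collagen genes were at intermediate levels at P2. Thbs1 fell further, from 3043 and 3439.8 to 1857 and 2016 (adjusted p = 0.0138), and Fos from 173 and 159.8 to 106 and 115 (adjusted p = 0.0405). Cd36 and Igfbp4 were not among the 27, with 3659 and 3245 at P2 for Cd36 and 818 and 1084 for Igfbp4.

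**Figure D4:**
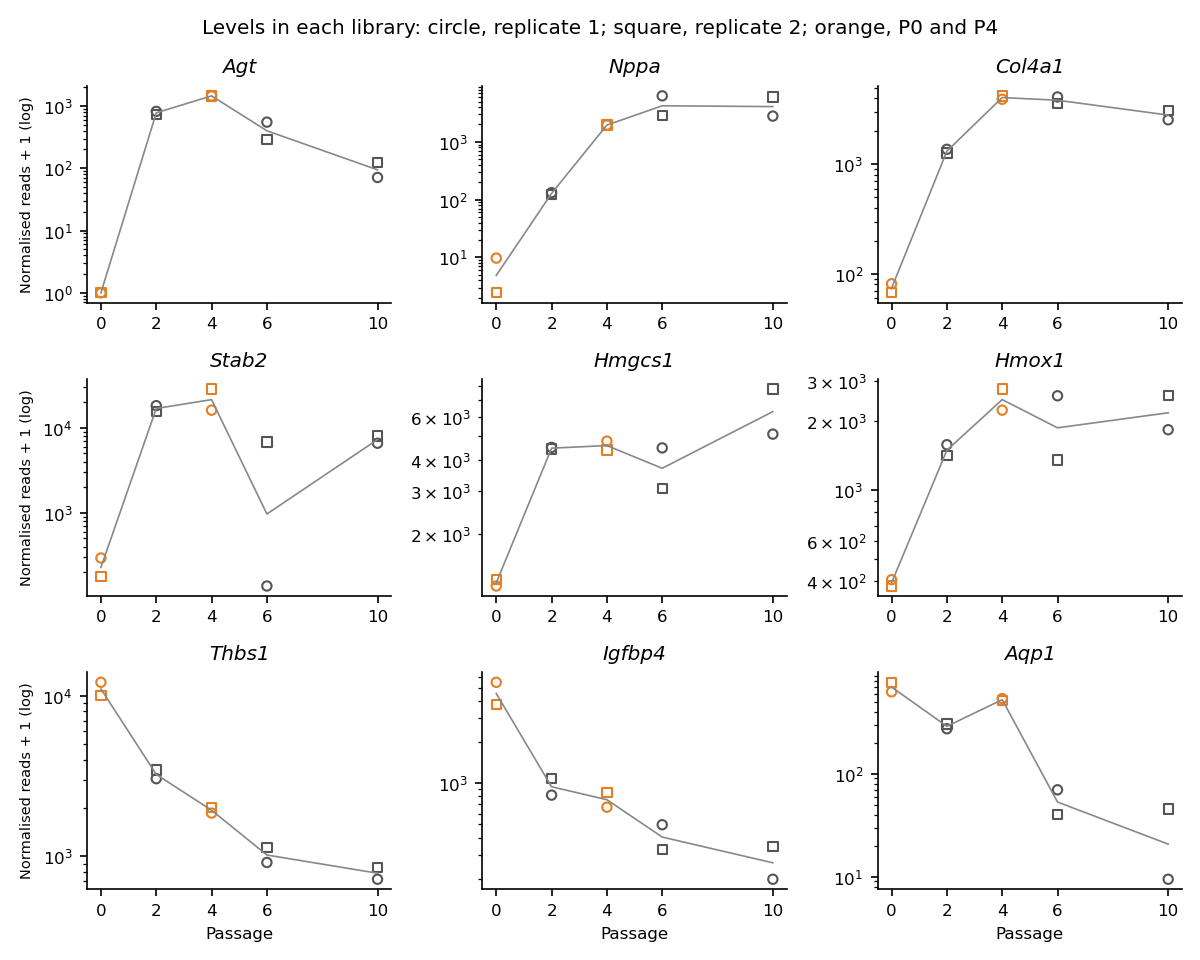
Normalised reads + 1 (vertical axis, log scale) at passages 0, 2, 4, 6 and 10 (horizontal axis) for selected genes, 1 point per library, with a line through the mean of the 2 libraries on the log scale. Agt and Aqp1 are lower at passage 10 than at P4, and Stab2 has 1 passage 6 library near the P0 level.

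The later passages had wider duplicates, and few differences from P4 passed. No feature passed for passage 6 against P4 in limma (3450, or 25.5%, at an unadjusted p under 0.05) or in edgeR. For passage 10 against P4, 7 features were higher and 23 lower in limma (30, or 0.222%), and edgeR called 25. Agt, without a read at P0, had 1448 and 1452 at P4, 549 and 289 at passage 6 and 70.0 and 124 at passage 10. Fabp4 had 344 and 238 at passage 6 and 141 and 130.3 at passage 10, below its P4 level. Igfbp4 stayed below P0, with 496 and 327 at passage 6 and 197 and 344 at passage 10. Nr4a1 had 25.8 and 21.3 at passage 6 and 8.44 and 17.2 at passage 10. The comparisons of passages 2, 6 and 10 with P0 share its 2 libraries with the present one, and they called 561, 2841 and 2301 features (4.15%, 21.0% and 17.0%).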

How the data were processed

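RNA-seq values of CHO-K1 cells were deposited as 1 table, in signal units of reads divided by a size factor. The authors normalised them with DESeq, per the submitters' processing notes. Not given in the sources used here are the aligner, the counter, the build and the annotation. Each deposited signal column fell on whole multiples of 1 step (100% of values within 0.001 reads). Steps were 0.780 to 1.44, and that of P4 replicate 1 (0.990) is too near 1 to be told from rounding by the automatic check. Recovered reads entered only the edgeR alternative and the depths.

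Of 25156 features 3625 had no reads, and 13521 with a mean of at least 10 over 10 libraries were tested. Features were named by their own symbol (5069) or through RefSeq numbers (9983). The other features stayed unnamed, among them 6388 whose RefSeq entry gives no gene symbol, 3664 unmatched numbers, 30 named by coordinates, 7 by dates and 15 whose symbol another feature holds. Limma 3.58.1 in R 4.3.3 (empirical Bayes with a mean trend) was fitted to log2(value + 1) over the 5 passages, and fold changes on this scale understate the change of low genes. EdgeR 4.0.16 (quasi-likelihood) on the recovered reads, which called 1202 features, was an alternative, as were other pseudocounts, filters, scalings and subsets of libraries. In simulated P4 against P0 data of 13521 genes, 200 were changed and each gene had 1 spread for all passages. Limma on 10 libraries called 12% of the genes changed 2-fold and 70% of those changed 4-fold, and 3 of its 85 calls were false.

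Named genes were the 14 largest called rises and falls with a mean of at least 50 and no overlap, up to 4 called members of each list by p, called markers of other cells, Igfbp4 and Aqp1. Other genes were chosen after their values were seen, and some genes are not reported here. The members and 40 gene lists (1058 of 1194 entries matched) were chosen with earlier results of these data known. Counting intervals (95%) and the floor of 3 reads per library cover counting error only.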

Additional observations from a re-analysis of the deposited data

Results flagged for a closer look

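The level at passage 10 differed from that at P4 for 11 of the genes given in the text, by limma on all 10 libraries, which is the same test as a difference between the changes from P0. Agt, the angiotensin precursor, was -3.94 in log2 units from P4 (adjusted p = 0.00431). Complement C7 was -1.75 from P4 (adjusted p = 0.00999). Fabp4 was -2.87 from P4 (adjusted p = 0.0021). Among matrix genes, Col9a3 was -4.04 (0.0270), Serpinf1 -1.996 (0.00663), Col6a1 -2.14 (0.0270), Lum -3.65 (0.0493) and Spp1 -1.89 (0.0270). These 8 genes had risen at P4 and were lower again at passage 10, in both passage 10 libraries. Thbs1, which had fallen at P4, was lower still, at -1.30 from P4 (0.0477). It missed the threshold in edgeR (adjusted p = 0.0515). Fibronectin, Fn1, which had not passed at P4, was -1.56 from P4 (0.0324). Aqp1, which had not passed at P4 either, was -4.66 from P4 (0.0324), with 8.44 and 44.5 normalised reads at passage 10 against 536 and 512 at P4.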

How the results depend on the processing

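The number of calls for P4 against P0, 1250, depended most on which libraries entered the model. It was 5677 with the P0 and P4 libraries alone and 5829 with those of passages 0, 2 and 4, and it ranged from 143 to 2783 when 1 library was left out. With the replicate number as a block it was 767, with 328 higher and 439 lower, and 25 of the 130 called genes chosen by the naming rule then missed the threshold. The labels give the numbers without saying what they pair, and the deviations of same-numbered P0 and P4 libraries had a correlation of -0.0062, so the numbers were not treated as pairs. The count was 1257 and 1244 with pseudocounts of 5 and 0.5, 1013 without the filter, 1237 with a minimum mean of 50, 1224 with TMM scaling and 1202 in edgeR. Of these 130 genes, 130 passed in the model of 4 libraries, and 47 passed in all 10 models that left out 1 library. None changed direction under any alternative run. For models with fewer libraries this was fixed in advance, because no called gene overlapped between P0 and P4. The 130 genes were called with these same libraries, so their passing again is not independent support. Without P0 replicates 1 and 2, 81 and 60 of them missed, and without P4 replicates 1 and 2, 83 and 79. The cause of these changes was not tested. With 2 libraries per passage, limma called few of the 2-fold changes in the simulated data. That simulation changed 200 genes, fewer than the 1250 called here, and gave each gene 1 spread for all passages. It therefore does not give the share of 2-fold changes missed between P4 and P0.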

Other observations

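Further genes changed that no list of the report held, and they were chosen after their values were seen. In polyamine metabolism, Odc1, the rate-limiting decarboxylase, had 758 and 756 normalised reads at P0 and 3865 and 3654 at P4 (log2 difference 2.31, SE 0.25, adjusted p = 0.00183). Srm, the next enzyme, spermidine synthase, had 249 and 141 normalised reads at P0 and 35.6 and 49.0 at P4 (log2 difference -2.14, SE 0.42, adjusted p = 0.0164). Azin1, which protects the decarboxylase from degradation, had 441 and 365 normalised reads at P0 and 103 and 89.7 at P4 (log2 difference -2.05, SE 0.25, adjusted p = 0.00268). The first enzyme was thus higher and the following enzyme and the protector lower in both P4 libraries. Growth factor ligands changed in both directions. Fgf7 had 203 and 264 normalised reads at P0 and 2247 and 2242 at P4 (log2 difference 3.27, SE 0.33, adjusted p = 0.00105), and Figf, the ligand VEGF-D, had 159 and 169.6 normalised reads at P0 and 703 and 608 at P4 (log2 difference 1.98, SE 0.25, adjusted p = 0.00286). Fgf2 had 1680.3 and 1137 normalised reads at P0 and 360.2 and 437 at P4 (log2 difference -1.80, SE 0.24, adjusted p = 0.00357). Srm missed the threshold without P0 replicate 1 or any 1 P4 library (highest adjusted p = 0.161). Fgf2 missed the threshold without P4 replicate 1 (highest adjusted p = 0.0574).

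Il33, an alarmin cytokine of barrier cells, had 49.7 and 35.9 normalised reads at P0 and 449 and 460.4 at P4 (log2 difference 3.40, SE 0.24, adjusted p = 0.000191). Complement C3 (2.24, adjusted p = 0.00321), C7 (2.17, adjusted p = 0.000423) and properdin, Cfp (1.94, adjusted p = 0.0491), rose. The phosphodiesterases Pde2a, which is stimulated by cGMP, and Pde1b had 18.3 and 25.9 normalised reads at P0 and 153 and 172 at P4 (log2 difference 2.85, SE 0.24, adjusted p = 0.000423) and 24.4 and 25.9 normalised reads at P0 and 172 and 206 at P4 (log2 difference 2.86, SE 0.22, adjusted p = 0.000235). Both enzymes break down cyclic nucleotides. Pja1, a ubiquitin ligase, had 1159 and 1247 normalised reads at P0 and 8990.5 and 8899.9 at P4 (log2 difference 2.89, SE 0.26, adjusted p = 0.000564). The transcription factor genes Foxp2 (-1.78, adjusted p = 0.0482), Prrx1 (-2.23, adjusted p = 0.00403), Nfib (-2.08, adjusted p = 0.00796) and Zfhx3 (-2.30, adjusted p = 0.00368) fell. C3 missed the threshold without P4 replicate 2 (highest adjusted p = 0.0595). Cfp and Foxp2 missed the threshold without any 1 P0, P2 or P4 library (highest adjusted p = 0.235 to 0.271). Prrx1 missed the threshold without any 1 P4 library (highest adjusted p = 0.0558). Nfib missed the threshold without any 1 P0 or P4 library (highest adjusted p = 0.0868). Zfhx3 missed the threshold without P0 replicate 1 or P4 replicate 1 (highest adjusted p = 0.054).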
